A study of Mus musculus with 4 samples.

Results

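Peaks of RNA crosslinked to the Musashi protein MSI2 were examined over 35 protein-coding genes of Paneth cells among 21900 placed protein-coding genes of the mouse. The set comprised the 29 genes whose symbol starts with Defa, which are the alpha-defensins, and 6 other genes, Lyz1, Mmp7, Ang4, Itln1, Reg3g and Reg3b. Every peak that shared at least 1 base with the span of such a gene was taken. The peaks come from CLIP-seq, in which RNA is joined to protein by ultraviolet light, precipitated with an antibody to MSI2 and sequenced. All mice had a C57BL6 background. Of 4 libraries, 2 were wild-type (WT), and 2 came from TRE-Msi2 animals, in which doxycycline switches on an added copy of Msi2. Per the labels, whole intestinal epithelium was taken from the TRE-Msi2 animals once doxycycline had been given for 24 hours, whereas isolated crypts were taken from WT, for which no doxycycline is recorded. Genotype, tissue fraction and doxycycline therefore differed together and cannot be told apart. The sources used here give neither what drives the transgene nor the number of animals. The authors deposited 1 pooled peak list per genotype, so no value below has a spread between replicates and no difference between genotypes was tested.

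Paneth cells sit at the base of the crypts of the small intestine and release granules of antimicrobial proteins into the crypt lumen. Mouse alpha-defensins, also called cryptdins, are short cationic peptides made as precursors, and the protease matrilysin, encoded by Mmp7, cuts them into their active form. MSI2 is a cytoplasmic RNA-binding protein whose known core motif is UAG. The alpha-defensin genes are a young family of tandem copies, and reads from near-identical copies may be shared among them or given to any of them.

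The WT list held 12061 peaks and the TRE-Msi2 list 16939 peaks, in bins of 200 nt. Each peak carries the authors' score. In every member peak of 1 bin it was a whole number, read here as a number of reads per bin. In wider peaks it was often a fraction, as an average would be, but not always one that the number of bins explains. The end peak of Defa35, 2 bins wide, scored 54.3333 in WT, for example. How the scores of wider peaks were formed is not stated in these sources. The median score was 19 in WT and 24.7 in TRE-Msi2. The depth of the libraries is unknown, and no RNA abundance was measured, so a high score can reflect an abundant transcript as well as its binding. Of 10 Paneth markers, most of them members, 9 held a peak in each list, the exception being Pla2g2a, which the annotation lists as a pseudogene. Peaks were also present in both lists over all 10 enterocyte, 6 of 10 goblet cell and 4 of 8 immune markers (Cd74, Lyz2, Ccl5 and Jchain). Of 8 enteroendocrine markers 4 held a WT peak, 6 a TRE-Msi2 peak and 3 both. The 8 stromal markers held a peak in neither list. Positions are on mm10 (GRCm38), as the peaks line up with its gene spans, and sequences and gene spans are from RefSeq (GRCm38.p6).

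The alpha-defensin copies are alike at their start codon, where the peaks at their gene starts lie. Of the 29 alpha-defensin genes, 16 had a sequence around the annotated start, and the 30 bases ending with the start codon and the next 2 bases took only 6 forms. A gene of each form is shown, with the start codon in capitals, because a read from this stretch could not separate the copies that share a form.
Defa21 (chr8:21025563-21025592, plus strand): ccaatcctccaggtgactcccagccATGaa
Defa30 (chr8:21134638-21134667, plus strand): ccaatcctccaggtgtctcccagccATGaa
Defa20 (chr8:21509276-21509305, plus strand): ccaattctccaggtgactcacagccATGaa
Defa37 (chr8:21565389-21565418, plus strand): ccaattctccaggtgacccccagccATGaa
Defa35 (chr8:21065041-21065070, plus strand): acaattctccaggtgacccccagccATGaa
Defa38 (chr8:21096046-21096075, minus strand): ctaatcttccaggtgactcccagtcATGaa
The form of Defa21 was shared by Defa22, Defa23, Defa31 and Defa28, that of Defa20 by Defa2 and Defa32, that of Defa37 by Defa36, that of Defa35 by Defa41, and that of Defa38 by Defa42 and Defa43. The window lay wholly inside a WT peak on the same strand in 12 of the 16 genes and inside a TRE-Msi2 peak in 11. Defa2, Defa28 and Defa36 had no such peak in either list. Defa42 had none because its window ran past the edge of its peak, and in Defa22 this was so in TRE-Msi2 only.

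Over the 250 bases before and 50 after the annotated start, 20 of 120 pairs of alpha-defensin genes were at least 95% identical, and the median pair was 81.5% identical. Defa21 and Defa22, Defa23 and Defa31, Defa2 and Defa20, Defa36 and Defa37, and Defa42 and Defa43 were identical over all 300 bases. The 3 genes read from the minus strand that had a sequence, Defa38, Defa42 and Defa43, were 97.3% to 100.0% identical to each other, and 62.7% to 80.9% identical to the plus-strand genes. The letters TATAAA, the core of a TATA box, stood in the 250 bases before the start in 15 of the 16 alpha-defensin genes, all but Defa28, on the transcribed strand, against 8.12% of 27025 genes. On either strand the same 15 genes held them, against 13.0% of all. Reg3b, Reg3g and Mmp7 held the letters as well. The places in 3 alpha-defensins and in Reg3b are shown with the motif in capitals.
Defa21 (chr8:21025502-21025531, plus strand): ctttctctgcccTATAAAtataggctggct
Defa37 (chr8:21565328-21565357, plus strand): ctttctctgcccTATAAAtgcaggttggct
Defa38 (chr8:21096107-21096136, minus strand): gcctctctgcccTATAAAtgcaggctgcct
Reg3b (chr6:78370844-78370873, plus strand): ctcaaattctgtTATAAAaacacagtcatc
The letters TAG, which spell the core Musashi motif in RNA, stood on the transcribed strand of the first 50 bases in 1 of 16 alpha-defensin genes, Defa28, against 33.2% of all genes. They stood there in Itln1, Reg3g, Mmp7 and Ang4 of the other 6 genes. This window covers only a small stretch of each peak, and the remainder of the peaks was not searched. Several of the 16 sequences are near-identical copies, so the counts for TAG and TATAAA are not of independent sequences. In Defa38, Defa41, Defa42 and Defa43 the annotated start is the first base of the start codon, so transcribed bases before it were not searched for TAG.

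Most alpha-defensin genes held peaks, and the same genes did so in both lists. Of the 29 genes 24 (82.8%, exact Clopper-Pearson 95% interval 64.2% to 94.2%) held a WT peak, against 20.3% of all protein-coding genes. The interval treats the genes as independent draws, which copies that may share reads are not, and is a description only. The same 24 held a TRE-Msi2 peak, against 24.9% of all protein-coding genes, and 19.1% of all protein-coding genes held peaks in both. The alpha-defensin genes are short, with spans of 805 to 1326 bp. Among 1573 other protein-coding genes in that range of spans only 0.572% held a WT peak and 1.02% a TRE-Msi2 peak. No RNA abundance was measured, so how many of those genes are expressed in this tissue is unknown, and the comparison matches span alone. All 6 of the other Paneth cell genes held peaks in both lists. The genes without a peak were Defa2, Defa28, Defa33, Defa36 and Defa-ps8, the last being annotated as protein-coding despite its symbol.

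The alpha-defensin genes lie between positions 21025545 and 21735471 of chromosome 8, a stretch of 710 kb. That stretch held 55 WT peaks, of which 47 lay over alpha-defensin genes, and 51 TRE-Msi2 peaks, of which 45 did. Defa2 (21378517 to 21379495), Defa33 (21391811 to 21392792) and Defa36 (21427428 to 21428386) are neighbours in the cluster, whereas Defa28 (21582960 to 21583867) and Defa-ps8 (21270693 to 21272018) each lie between alpha-defensin genes with peaks. The 300 bases around the start of Defa2 were identical to those of Defa20, which had peaks with top scores of 86.5 in WT and 61.5 in TRE-Msi2. Those of Defa36 were identical to Defa37, with 57 and 120. How reads that map to several copies were treated is not stated in these sources, and its part in these missing peaks was not tested. Of 24 beta-defensin genes on the same chromosome, peptides of other epithelia, 0 held a peak in either list.

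**Figure D1:**
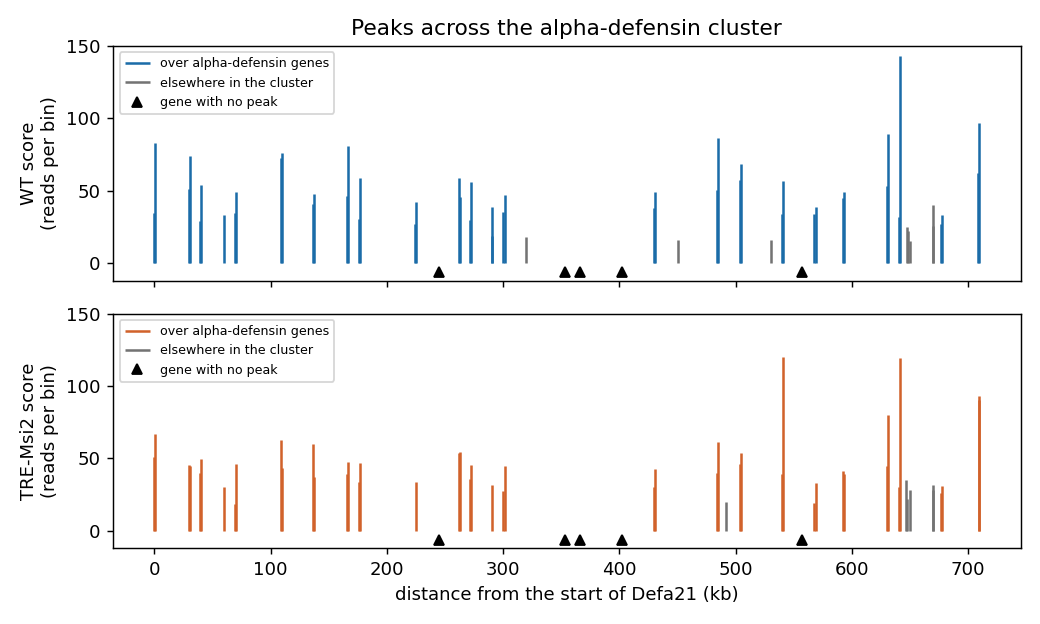
Score of each peak (reads per bin, y axis) against its distance from the start of Defa21 (kb, x axis) in the WT list (top) and the TRE-Msi2 list (bottom); grey lines are peaks outside alpha-defensin genes and triangles mark the 5 genes with no peak. Peaks stand at the genes in both lists, and 3 of the genes without a peak lie side by side in the middle of the cluster.

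Each alpha-defensin gene with peaks typically held 1 at its start and 1 at its end, with the middle of the gene free of peaks. In WT, 23 of 24 genes held exactly 2 peaks, against 21.5% of all protein-coding genes with a WT peak. In TRE-Msi2, 21 of 24 did, against 20.5%. Alpha-defensin genes are known to have a short first exon that encodes the signal peptide and propeptide and another that encodes the mature peptide, separated by an intron. The peak at the start covered the annotated gene start in 22 of 23 WT and 19 of 21 TRE-Msi2 cases, and the peak at the end covered the annotated gene end in 21 of 24 and 19 of 24. The gap between them was 400 to 600 nt, and was 400 nt in 20 of 23 WT and 14 of 21 TRE-Msi2 genes. Defa25 held an end peak alone in both lists, and Defa27 and Defa40 held a start peak of 1 bin in WT only, with scores of 19 and 27. The lowest score of a peak of 1 bin was 15 in WT and 20 in TRE-Msi2, so the score of Defa27 lies below the lowest of the TRE-Msi2 list.

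The strand of the reads matched the annotation. All 26 WT and all 26 TRE-Msi2 peaks over the alpha-defensin genes with a known strand lay on the transcribed strand, as did all 42 and all 40 peaks over the members of known strand. The peaks of each alpha-defensin gene lay on 1 strand. By this strand 19 of the 24 genes were read from the plus strand and 5, Defa29, Defa38, Defa39, Defa42 and Defa43, from the minus strand. Defa29, Defa38 and Defa39 carry CRS1C among their older names, a cryptdin-related group. Each of the 5 holds an annotated snoRNA gene in its span, and 0 peaks of either list touched these snoRNA genes.

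**Figure D2:**
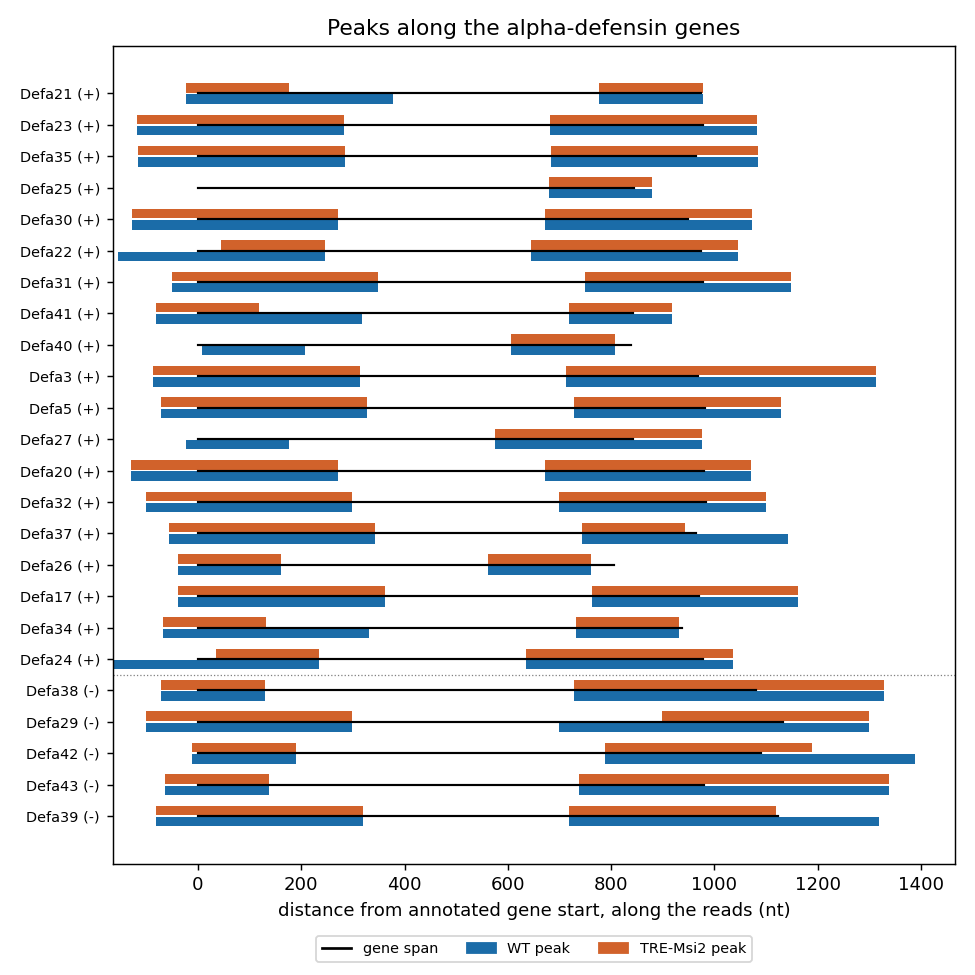
Peaks along the 24 alpha-defensin genes with peaks, as distance from the annotated gene start in the direction of the reads (nt, x axis); black lines are gene spans, blue bars WT peaks and orange bars TRE-Msi2 peaks, and the dotted line parts plus-strand from minus-strand genes. Most genes show a peak at each end in both lists, and the minus-strand genes have wide end peaks.

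The highest scores belonged to end peaks of plus-strand genes. Defa34 (21665797 to 21666733) held the highest score of the whole WT list, 143, in the bin at 21666529 to 21666728, where TRE-Msi2 scored 119. Taken as counts of reads, 143 has an exact Poisson 95% interval of 121 to 168, and 119 of 98.6 to 142, for counting error only. Its start peak scored only 32 in WT and 30 in TRE-Msi2, so the ends of this gene differed more than those of any other alpha-defensin gene in WT. In WT its start peak was 2 bins wide and its end peak 1 bin, so these scores may not be on the same footing.

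Defa24 (21734494 to 21735471) scored 62 at its start and 97 at its end in WT, and 93 and 90.5 in TRE-Msi2. Defa17 (21655767 to 21656736) scored 53 and 89.5 in WT and 44.5 and 80 in TRE-Msi2. Defa20 (21509258 to 21510237) scored 50.5 and 86.5 in WT and 40 and 61.5 in TRE-Msi2. In these 3 genes, which encode cryptdin precursors, the end peak had the higher score in both lists except in Defa24 in TRE-Msi2. Defa21 (21025545 to 21026517) scored 35 and 83 in WT and 51 and 67 in TRE-Msi2. Defa22 (21162277 to 21163249), the copy with the same start, scored 41 and 48 in WT and 60 and 37 in TRE-Msi2. The end peak was 1 bin wide in Defa21 and 2 bins wide in Defa22 in both lists, so their end scores may not be on the same footing.

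Defa23 (21055040 to 21056016) scored 51 at its start and 74 at its end in WT, and 45.5 and 45 in TRE-Msi2. Defa31 (21191573 to 21192550), whose 300 bases around the start are the same, scored 46.5 and 81 in WT and 39 and 47.3 in TRE-Msi2. These copies had end peaks that stood well above the start peaks in WT and nearer to them in TRE-Msi2. Defa30 (21134650 to 21135598) held the highest start score in WT, 72.5, beside 76 at its end, and scored 63 and 43.3 in TRE-Msi2. Defa32 (21529030 to 21530012) scored 57.5 and 68.5 in WT and 46 and 54 in TRE-Msi2. Defa41 (21201604 to 21202446), the shortest of these genes, scored 30.5 and 59 in WT and 34 and 47 in TRE-Msi2. All of these genes lay within the upper 10% of scores in both lists.

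Defa3 (21287409 to 21288377) scored 58.5 at its start and 45.5 at its end in WT, and 54 and 54.3 in TRE-Msi2. Defa37 (21565386 to 21566350) scored 34 and 57 in WT and 39.5 and 120 in TRE-Msi2, the highest alpha-defensin score of that list. Its end peak was 2 bins wide in WT and 1 bin in TRE-Msi2, so the values may not be on the same footing. The remaining genes had lower top scores, down to 33 in WT and 30 in TRE-Msi2, both in Defa25. The top score of each of the 24 genes exceeded the median of its list, as did that of 61.9% of all genes with a WT peak and 66.5% of those with a TRE-Msi2 peak. It lay in the upper 10% of the peaks in 24 genes in WT and 19 in TRE-Msi2, against 15.4% and 18.3% of all genes with peaks. Of the 100 highest peaks, 13 in WT and 5 in TRE-Msi2 lay over alpha-defensin genes, which held 47 of all 12061 WT peaks and 45 of all 16939 TRE-Msi2 peaks. Over the 24 genes the top scores of the lists had a Spearman rho of 0.83 and a Pearson r of 0.74, given as a description, since the genes may share reads.

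**Figure D3:**
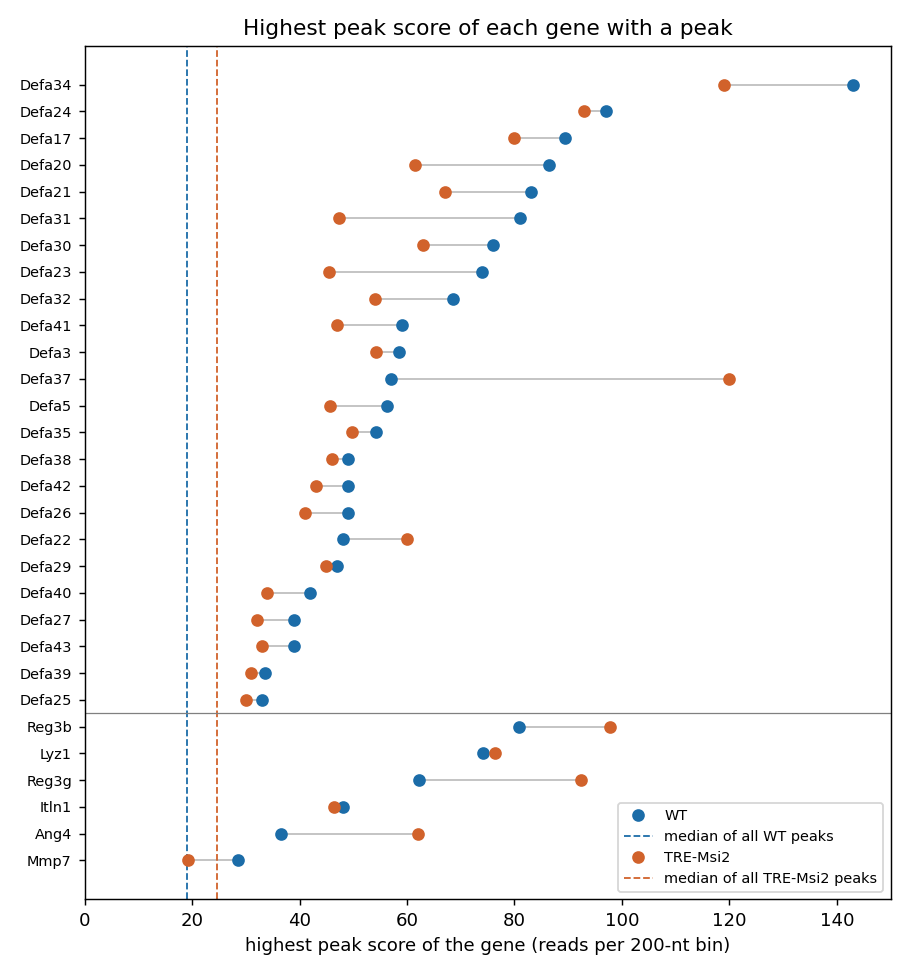
Highest peak score of each of the 30 genes with peaks (reads per bin, x axis), with the WT value in blue and the TRE-Msi2 value in orange; dashed lines are the medians of all peaks, 19 and 24.7. Most alpha-defensins (above the grey line) have the lower value in TRE-Msi2, and Reg3b, Reg3g and Ang4 the higher.

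Start and end peaks differed by strand. Among the plus-strand genes with both, the end peak scored higher in 17 of 18 genes in WT and in 11 of 16 in TRE-Msi2. In the 5 minus-strand genes the start peak scored higher in all 5 in both lists. Defa38 (21094971 to 21096050), for example, scored 49 at its start and 34.7 at its end in WT, and 46 and 18.8 in TRE-Msi2. Defa29 (21325888 to 21327020) scored 47 and 35.7 in WT and 45 and 27.7 in TRE-Msi2. Peak width moved with this. The minus-strand end peaks were 400 to 600 nt wide and their start peaks 200 to 400 nt, and how a wider peak is scored is not stated. Where both peaks of a gene had the same width, the end scored higher in 13 of 13 plus-strand genes in WT and 9 of 12 in TRE-Msi2. Only 2 minus-strand genes, both in TRE-Msi2, had peaks of equal width, and in these the start scored higher. The minus-strand genes with a sequence, Defa38, Defa42 and Defa43, were 97.3% to 100.0% identical around the start. Strand and a group of like copies can therefore not be told apart. Copies that may share reads are not independent. Over all strands the median ratio of end to start score was 1.56 in WT and 1.01 in TRE-Msi2.

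**Figure D4:**
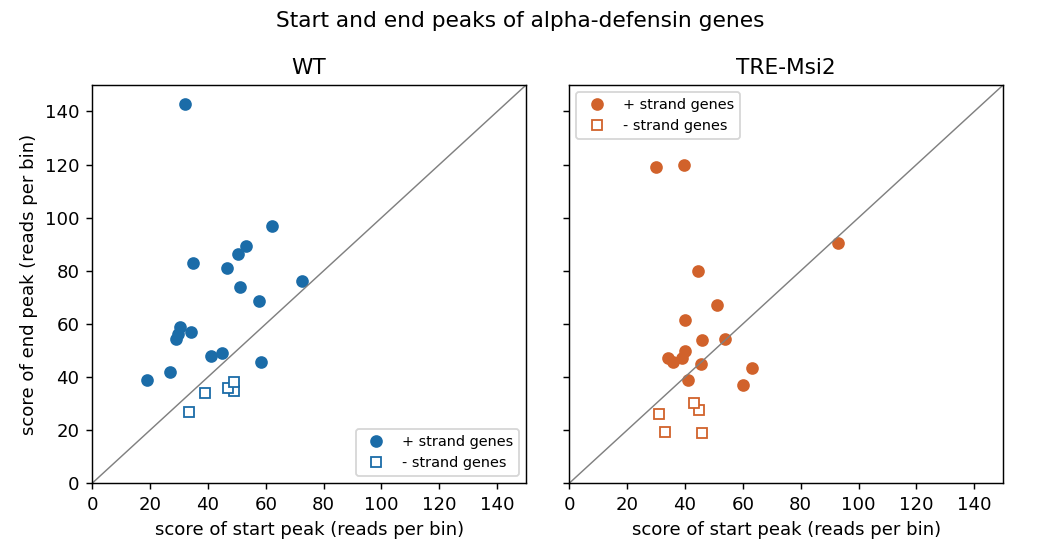
Score of the end peak (y axis) against score of the start peak (x axis), both in reads per bin, for each alpha-defensin gene with both, in WT (23 genes) and TRE-Msi2 (21 genes); filled circles are plus-strand and open squares minus-strand genes, and the line marks equal scores. Minus-strand genes lie below the line in both lists, and 17 of 18 plus-strand genes lie above it in WT.

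Most WT peaks of the members were overlapped in the TRE-Msi2 list, as were most WT peaks of all genes. Of the 47 WT peaks over alpha-defensin genes 45 were overlapped by a TRE-Msi2 peak on the same strand, against 91.3% of all WT peaks, and 36 had identical bounds, against 47.8%. All 45 TRE-Msi2 peaks were overlapped by a WT peak, against 57.6% of the longer TRE-Msi2 list. Of the 16 WT peaks over the other Paneth cell genes 14 (87.5%) were overlapped, and all 14 TRE-Msi2 peaks were.

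Most alpha-defensins had a lower top score in the TRE-Msi2 list, where most genes had a higher one. Of the 4186 protein-coding genes with peaks in both lists only 9.99% had a lower top score in TRE-Msi2, and the median log2 ratio of TRE-Msi2 to WT was 0.49 (a ratio of 1.4). Of the 24 alpha-defensin genes 22 (91.7%) had the lower top score in TRE-Msi2, with a median log2 ratio of -0.25. The genes are not independent replicates, since copies may share reads, and the count is a description. The ratios ran from -0.78 in Defa31 to 1.07 in Defa37. Of all genes with both, 4.04% had a ratio below the alpha-defensin median. Defa37 and Defa22 were the exceptions, and in both the TRE-Msi2 peak with the top score was 1 bin wide while the WT peak at that place was 2 bins wide. In peaks of 1 bin with identical bounds, where width cannot enter, all 10 alpha-defensin peaks scored lower in TRE-Msi2 (log2 ratios of -0.33 to -0.09). Of 3942 such peaks in the lists 3.22% were lower, with a median of 0.61. The lowest score of a peak of 1 bin was 15 in WT and 20 in TRE-Msi2. Such a peak in both lists with a WT score below 20 can only be higher in TRE-Msi2. These floors enter the shares and medians over all genes and peaks, and their part was not tested. In the wider comparison of identical bounds 32 of 36 alpha-defensin peaks were lower, against 6.2% of 5770.

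End and start peaks were also compared apart. Of 24 end peaks present in both lists 22 were lower in TRE-Msi2, with a median log2 ratio of -0.32. Of 21 start peaks 14 were, with a median of -0.11. The start peaks of Defa21, Defa22, Defa24 and Defa41 scored higher in TRE-Msi2, but were 400 nt wide in WT and 200 nt in TRE-Msi2. Their values may therefore not be on the same footing. That of Defa34, with the same widths, scored lower. In Defa5, Defa35 and Defa37 the start peak scored higher with identical bounds. The part of width in the difference between starts and ends was not tested. Among other genes a lower TRE-Msi2 score was more frequent where the WT score was high. Of 492 other genes with a top WT score of at least 33, the lowest among alpha-defensins, 29.5% were lower in TRE-Msi2, with a median log2 ratio of 0.22. Of 65 with at least 56.6, the alpha-defensin median, 41.5% were lower, with a median of 0.07, beside 11 of 12 alpha-defensins with a median of -0.29. A pick on the WT score, which enters the ratio, favours lower ratios, and its part in the alpha-defensin count was not tested. These limits were set after the values were seen. Picked on the geometric mean of both scores (at least 31.5, the lowest among alpha-defensins), 13.3% of 948 other genes were lower, with a median of 0.46. Of 9 other genes in the same range of spans 2 were lower, with a median of 0.64. Markers of other cells were mostly higher in TRE-Msi2, with 2 of 10 enterocyte and 1 of 6 goblet cell markers lower (medians of 0.41 and 0.61). Of 3 enteroendocrine markers 0 were lower (median 0.68), while 3 of 4 immune markers were slightly lower (median -0.06). Of the 9 Paneth markers with peaks, most of them members, 6 were lower, with the same median of -0.06. These ratios have no replicate check. The scores come from material in which, per the labels, crypts were set against whole epithelium, and fewer Paneth cells, less alpha-defensin RNA per Paneth cell and less binding cannot be told apart.

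**Figure D5:**
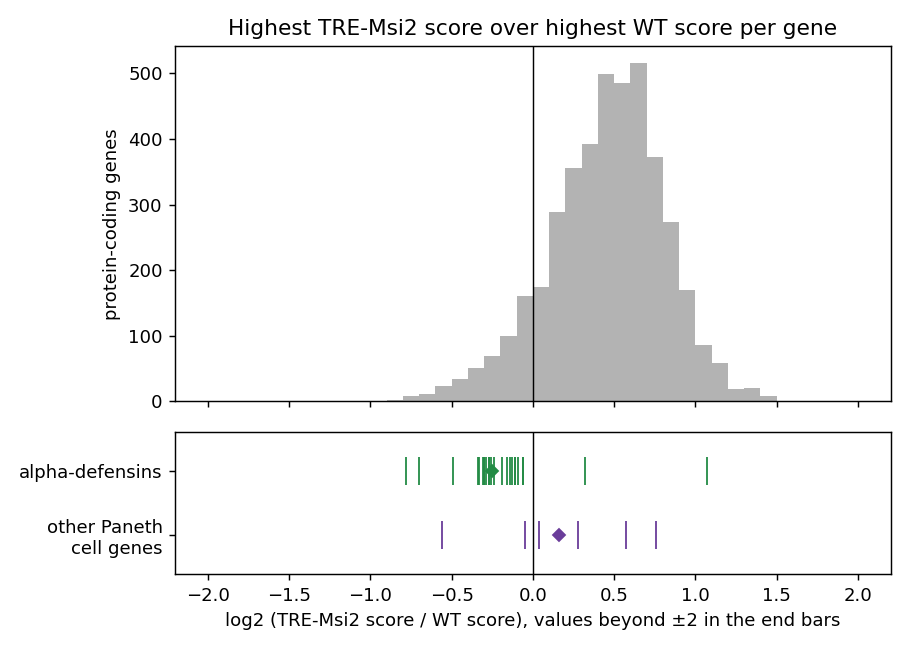
Histogram of the log2 ratio of highest TRE-Msi2 to highest WT score over 4186 protein-coding genes with peaks in both lists (top; y axis, genes), and the ratios of the 24 alpha-defensins and 6 other Paneth cell genes (bottom; ticks are genes, diamonds medians of -0.25 and 0.16). Most alpha-defensins lie left of 0, where 9.99% of all genes lie.

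The other Paneth cell genes had ratios on both sides of 0. Those of Mmp7 (-0.56), Itln1 (-0.05) and Lyz1 (0.04) lay below the lower quartile of all genes, 0.23, and those of Reg3b (0.28), Reg3g (0.57) and Ang4 (0.76) above it. Lyz1, on chromosome 10 (117287795 to 117292868), encodes lysozyme, which cleaves bacterial cell walls. Its highest peak, 1000 nt wide at the end of the gene (117287745 to 117288744), scored 74.2 in WT and 76.4 in TRE-Msi2. A middle peak scored 23.5 and 28.5, and peaks at 117289145 to 117289344 and over the gene start, both with 18, were in the WT list alone. The first of these was 1 bin wide, and the lowest score of such a peak in TRE-Msi2 was 20. Lyz2, the neighbouring lysozyme gene known from macrophages, scored 39.6 and 38. The 300 bases around the starts of the pair aligned with 82.7% identity, and the last 30 differ at a single base, in capitals, so a read there would tell the copies apart only at that base.
Lyz1 (chr10:117292819-117292848, minus strand): tccagtcaccatgaagGctctcctgactct
Lyz2 (chr10:117282223-117282252, minus strand): tccagtcaccatgaagActctcctgactct

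Itln1, on chromosome 1 (171518123 to 171535325), encodes intelectin, a lectin that binds microbial sugars. Its end peak, at 171518070 to 171518469, scored 48 in WT and 46.5 in TRE-Msi2. Its other 3 peaks, each of 1 bin and more than 10 kb before the gene end, scored 16, 17 and 19 in WT and 22, 21 and 21 in TRE-Msi2. These lie near the lowest score that a peak of 1 bin has in each list, 15 and 20.

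Mmp7, on chromosome 9 (7692090 to 7699585), encodes matrilysin, which activates alpha-defensins. Its only peak, at 7695001 to 7695400, scored 28.5 in WT and 19.3 in TRE-Msi2. This was the weakest peak among the top peaks of the genes with peaks, and the only top score below the median of its list (TRE-Msi2). It also touched the span of AV064505, so it cannot be given to Mmp7 alone. Ang4, on chromosome 14 (51763892 to 51773590), encodes an angiogenin of the ribonuclease family with antimicrobial action. Its only peak lay at the end of the gene and scored 36.5 in WT, over 2 bins, and 62 in TRE-Msi2, over 1 bin. As with Defa37, the unequal width means that the values may not be on the same footing. Of the related genes Ang, Ang2, Ang5 and Ang6, only Ang5 held a peak, with a score of 16 in WT.

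Reg3b and Reg3g, on chromosome 6, encode secreted lectins that act on bacteria and are known from enterocytes as well as Paneth cells. Reg3b (78370885 to 78373466) held 3 peaks, which scored 23, 45.2 and 80.8 from start to end in WT and 38.5, 74.2 and 97.8 in TRE-Msi2. Reg3g (78466269 to 78468874) also held 3, which scored 17, 62.3 and 62.3 in WT and 32, 92.3 and 73.8 in TRE-Msi2. Every peak of both genes scored higher in TRE-Msi2, with log2 ratios of the top scores of 0.28 and 0.57. Both lay between the quartiles of all genes, 0.23 and 0.7 around a median of 0.49, with Reg3b near the lower quartile. All but the Reg3g end peak had identical bounds in the lists. Of the other Reg genes, Reg1 scored 58.7 and 69.5, Reg3a 25 and 36, and Reg4 22.7 and 39, while Reg2 and Reg3d held no peak. Over the 6 genes the median log2 ratio was 0.16, with 2 lower in TRE-Msi2, against a median of 0.49 and 9.99% lower over all genes.

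Of 46 other genes of Paneth cells and of the secretory pathway, 17 held a WT peak, 19 a TRE-Msi2 peak and 15 both, against 20.3%, 24.9% and 19.1% of all protein-coding genes. In both lists the highest were led by Hspa5, a chaperone of the endoplasmic reticulum (47.2 in WT and 76.8 in TRE-Msi2). In WT it was followed by Lyz2 (39.6), Guca2a, the precursor of guanylin (32), and the disulfide isomerase gene Agr2 (31). In TRE-Msi2 it was followed by Guca2a (69), Guca2b (53.5) and Agr2 (52.3). In both lists the higher of the Hspa5 peaks also touched the span of Rabepk. The Paneth regulators Sox9 (26 in both lists) and Xbp1 (26 and 25) held peaks, while Atoh1, Gfi1, Spdef and Wnt3 held none. Mptx2, a pentraxin of Paneth cells, scored 27 and 24.5. Of the 15 genes with both, 3 had a lower top score in TRE-Msi2, against 9.99% of all, with a median log2 ratio of 0.38.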

How the data were processed

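RNA bound by MSI2 was measured by CLIP-seq in 4 libraries, 2 WT and 2 TRE-Msi2, grouped by their labels. Per the submitters' processing notes, reads were handled with cutadapt and TopHat, and mm9 and mm10 are named as builds, with versions, depth and the treatment of multi-mapping reads not given in the sources used here. Per the file names, the authors removed duplicates, merged the samples of a genotype and called peaks with Piranha. The deposited lists give a score and a p-value joined in a single cell, and only the score was used. The p-value cell is above 0.05 for 7 of 47 WT and 9 of 45 TRE-Msi2 peaks over alpha-defensins, which were kept. The share over all peaks is not given here, so these counts cannot be called particular to alpha-defensins.

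Peaks were assigned to a gene by an overlap of at least 1 base with its RefSeq span (GRCm38.p6). The intersection was tested on simulated peaks. Shares of genes have exact Clopper-Pearson 95% intervals and single-bin scores exact Poisson intervals. The Poisson intervals cover counting error only. The Clopper-Pearson intervals treat genes as independent draws, and neither kind covers a spread between animals or libraries. Python 3.11.15, pandas 2.3.3, numpy 2.4.6, scipy 1.17.1 and Biopython 1.88 were used, the last for pairwise identity of start sequences. Values were to be given for the 6 other Paneth cell genes, the 10 alpha-defensins with the highest top score in each list and every member without a peak. Defa25, Defa27, Defa29, Defa38, Defa39, Defa40, Defa42 and Defa43 were named after their values were seen. The members and lists were chosen with earlier results of these data known. An exon annotation and the encoded proteins were not used here.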

Additional observations from a re-analysis of the deposited data

Results flagged for a closer look

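The alpha-defensin cluster also held peaks outside the 29 genes, in data that the comparisons above do not use. Defa-ps1, an annotated alpha-defensin pseudogene, held 2 peaks of 1 bin in each list at the same positions. Where they lie along its span was not measured. The peak at 21694929 to 21695128 scored 26 in WT and 28 in TRE-Msi2, and that at 21695729 to 21695928 scored 40 in WT and 32 in TRE-Msi2. The other peaks lay over no annotated gene. On the minus strand beyond Defa34, WT peaks starting at 21673329, 21674129 and 21675129 scored 25, 22 and 15. TRE-Msi2 peaks starting at 21673329 and 21675129 scored 22.1 and 28, the first of them spanning the place of the WT peaks at 21673329 and 21674129. A TRE-Msi2 peak on the plus strand starting at 21672129 scored 35, with no WT counterpart. The remaining WT peaks, starting at 21345522, 21476329 and 21556129, scored 18, 16 and 16, close to the lowest single-bin score of that list, 15. The remaining TRE-Msi2 peak, starting at 21517129, scored 19.7.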

How the results depend on the processing

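Of the counts of genes or peaks under alternative settings, 70 stayed within 1.5 times the reported count and 20 moved by more. All that moved used peaks of 1 bin, which leaves fewer peaks by construction. With single-bin peaks alone, 13 members held a WT peak (10 alpha-defensins and 3 others, 17 peaks), 15 a TRE-Msi2 peak (12 and 3, 21 peaks) and 11 both, and 9 of 9 alpha-defensins were lower in TRE-Msi2, against 6.82% of all genes. With single-bin peaks of identical bounds, a setting chosen after seeing the data, 11 members held a peak in each list (9 alpha-defensins and 2 others, 14 peaks), and 9 of 9 alpha-defensins were lower, against 2.99%. With identical bounds of any width, also chosen after seeing the data, 23 of 24 were lower, all but Defa37, whose remaining peak scored 34 in WT and 39.5 in TRE-Msi2. In the other 6 settings, which were run on this count after seeing the data, 22 of 24 were lower, against 7.78% to 10.2% of all genes. Several of these could not change it. The cuts by score and by list length kept every top peak of the 24 genes. All alpha-defensin peaks touched 1 gene span and lay on 1 strand per gene, and the strand filter left other genes unfiltered. For these settings the unchanged counts of alpha-defensin genes are therefore no check on the results. The unequal lowest scores of the lists enter each of these shares over all genes, and their part was not tested. No paired analysis was possible because each list pools the libraries of its genotype, and for the same reason no replicate could be left out. Identity of the encoded proteins was not computed.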
